A study of Mus musculus with 31 samples.

Results

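mRNA batch 5 is a set of 4 polyadenylated mRNA libraries of mouse cortex, 1 of each genotype of the study, and it is compared here with the 12 mRNA libraries of batches 6, 7 and 8, which also hold each genotype once per batch. These are 4 and 12 of the 31 libraries of the series; the other 15 are ribosome footprint libraries. The genotypes are wild type (WT), deficient in Fmr1 (FXS in the labels), deficient in Rps6kb1, the gene for the kinase S6K1 (S6K1), and deficient in both (DKO). All cortices came from mice of postnatal day 29 to 34, dissected and lysed, and the kit named for the mRNA libraries is TruSeq with polyA selection. The alleles, the strain and what a batch number stands for (animals, lysis, RNA isolation, library preparation or sequencing run) are not given in the sources used here, so these cannot be told apart within a batch. The batch was taken from the labels, with genotype as a covariate, and the question was which cell types, cell compartments and classes of transcript go with it.

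Proteins that end up in the plasma membrane, the lysosome, the Golgi apparatus or outside the cell are made by ribosomes docked on the endoplasmic reticulum (ER), to which a signal sequence or a first transmembrane segment of the growing chain directs them, together with the mRNA. Most proteins of the cytosol, the nucleus and the mitochondria are made on free ribosomes. Many standard markers of microglia, the resident macrophages of the brain, and of endothelial cells, which line its vessels, are receptors, adhesion molecules, transporters and secreted factors, while others are transcription factors or cytosolic proteins of the same cells. Cx3cr1, the receptor for fractalkine, and Cldn5, a tight junction protein, are membrane markers of microglia and of endothelium.

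Library totals were similar: 13.4 to 16.8 M counts in batch 5 and 12.1 to 17.3 M in the others, with 15827 to 16093 and 15739 to 16162 genes detected. The TMM scaling factors did not overlap, with 1.05 to 1.09 in batch 5 and 0.956 to 0.996 in the others. Fmr1 mRNA lay at 10.6 to 22.1 CPM in the 8 FXS and DKO libraries and at 55.6 to 82.6 CPM in the 8 others. Rps6kb1 lay at 28.2 to 43.7 CPM in S6K1 and DKO and at 39.5 to 55.5 CPM in WT and FXS, ranges that overlap. These ranges pool the batches, and both genes were called higher in batch 5. Their log2 fold changes ran from 0.34 to 0.52 (Fmr1) and from 0.36 to 0.45 (Rps6kb1) over the main and alternative settings. Fmr1 lost the call in 1 setting, without genotype. The excitatory neuron marker Slc17a7 was at 1315 CPM or more in every mRNA library, which fits the cortex label. Whether libraries of a group came from separate animals is not stated, so p-values measure the spread between these libraries, and 1 batch is set against 3.

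Of 14215 genes tested, 6297 differed between batch 5 and the others at an adjusted p under 0.05 in edgeR's quasi-likelihood test (44.3%), with 3383 lower (23.8%) and 2914 higher (20.5%). The changes were lopsided in size. Among called genes, 470 were lower by more than 1 on the log2 scale and 20 were higher by as much, while the median over all genes was 0.02. All 4 libraries of batch 5 lay below all 12 others for 1944 genes (13.7%) and above them for 925 (6.51%). The same test gave 0 calls for batch 6, 0 for batch 7 and 0 for batch 8, each against its other 3 batches (0% each), with 1061, 480 and 1826 genes at an unadjusted p under 0.05. In those fits the distance of batch 5 from the rest counts as error. With 4 separate batch terms the counts were 1477, 996 and 2070, with DESeq2 they were 0, 1 and 122, and without batch 5 they were 0, 0 and 126.

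Microglial mRNAs were lower in batch 5 where they code for membrane, lysosomal or secreted proteins. Of 24 such markers, 24 were called lower, against 23.8% of all genes tested, with log2 fold changes of -2.18 to -0.73 and a median of -1.35. For all 24, every library of batch 5 lay below every other library, against 13.7% of all genes. Of the 5 markers whose products stay in the cytosol or nucleus, 0 were called and the median was -0.09. This division by the site of the protein was drawn up from background knowledge after the values had been seen, and it is given as a description.

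Cx3cr1 was at 9.995 CPM in the WT library of batch 5, 9.53 in the FXS one, 7.10 in S6K1 and 8.20 in DKO. The other 12 libraries ran from 15.5 to 25.9 CPM (median 21.8), so all 4 libraries of batch 5 were below the lowest of them. The level was 2.46 times lower (log2 fold change -1.30 ± 0.12 SE, edgeR adjusted p = 1.34e-09). Ctss, the lysosomal protease cathepsin S, had the smallest p of all genes that were lower, at 30.8, 29.5, 25.1 and 26.5 CPM in WT, FXS, S6K1 and DKO of batch 5 against 92.1 to 117 CPM (median 102) elsewhere (3.70 times lower, log2 fold change -1.89 ± 0.070 SE, edgeR adjusted p = 6.65e-16). The 2 sets of values are well apart. Csf1r, the receptor on whose signal microglia depend for survival, was at 39.02, 38.1, 28.1 and 39.6 CPM against 113 to 170.2 CPM (median 142) (log2 fold change -1.98 ± 0.097 SE, edgeR adjusted p = 3.54e-13). The integrin gene Itgam (CD11b) was at 4.38, 6.98, 2.91 and 5.95 CPM against 17.4 to 28.8 CPM (median 22.6), 4.53 times lower (log2 fold change -2.18 ± 0.15 SE, edgeR adjusted p = 5.08e-11). Both are separated from all 12 other libraries, and the S6K1 library was the lowest of batch 5 for each of these 4 genes.

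The markers with cytosolic or nuclear products overlapped the other batches, and the difference between the classes was not tested. Inpp5d, a cytosolic lipid phosphatase of blood and immune cells, was at 18.4, 19.2, 16.8 and 17.6 CPM in batch 5 and 14.8 to 22.7 CPM (median 19.2) in the others (log2 fold change -0.09 ± 0.092 SE, edgeR adjusted p = 0.466). Sall1, a transcription factor that sets microglial identity, was at 46.3, 53.6, 46.1 and 36.4 CPM against 32.7 to 62.1 CPM (median 43.6) (log2 fold change 0.03 ± 0.15 SE, edgeR adjusted p = 0.901). Aif1 (IBA1), a cytosolic actin-binding protein and the usual stain for microglia, was at 10.5, 6.49, 5.54 and 7.29 CPM against 6.64 to 10.6 CPM (median 8.93) (log2 fold change -0.23 ± 0.13 SE, edgeR adjusted p = 0.169); without the WT library of batch 5 it was called lower (-0.42, adjusted p = 0.0229). The transcription factors Irf8 and Spi1 had log2 fold changes of 0.08 ± 0.17 and -0.10 ± 0.15. Summed over the members, the membrane and secreted group was at 383, 379.9, 298 and 359 CPM in the 4 libraries of batch 5 against 989.9 to 1187 CPM (median 1056), and the cytosolic and nuclear group at 84.8, 88.6, 76.9 and 68.7 CPM against 68.1 to 97.4 CPM (median 81.9). In bulk tissue, fewer cells of a type and less RNA per cell cannot be told apart, and neither was tested. The part of lysis, RNA isolation or library preparation in these values was not tested either.

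**Figure D1:**
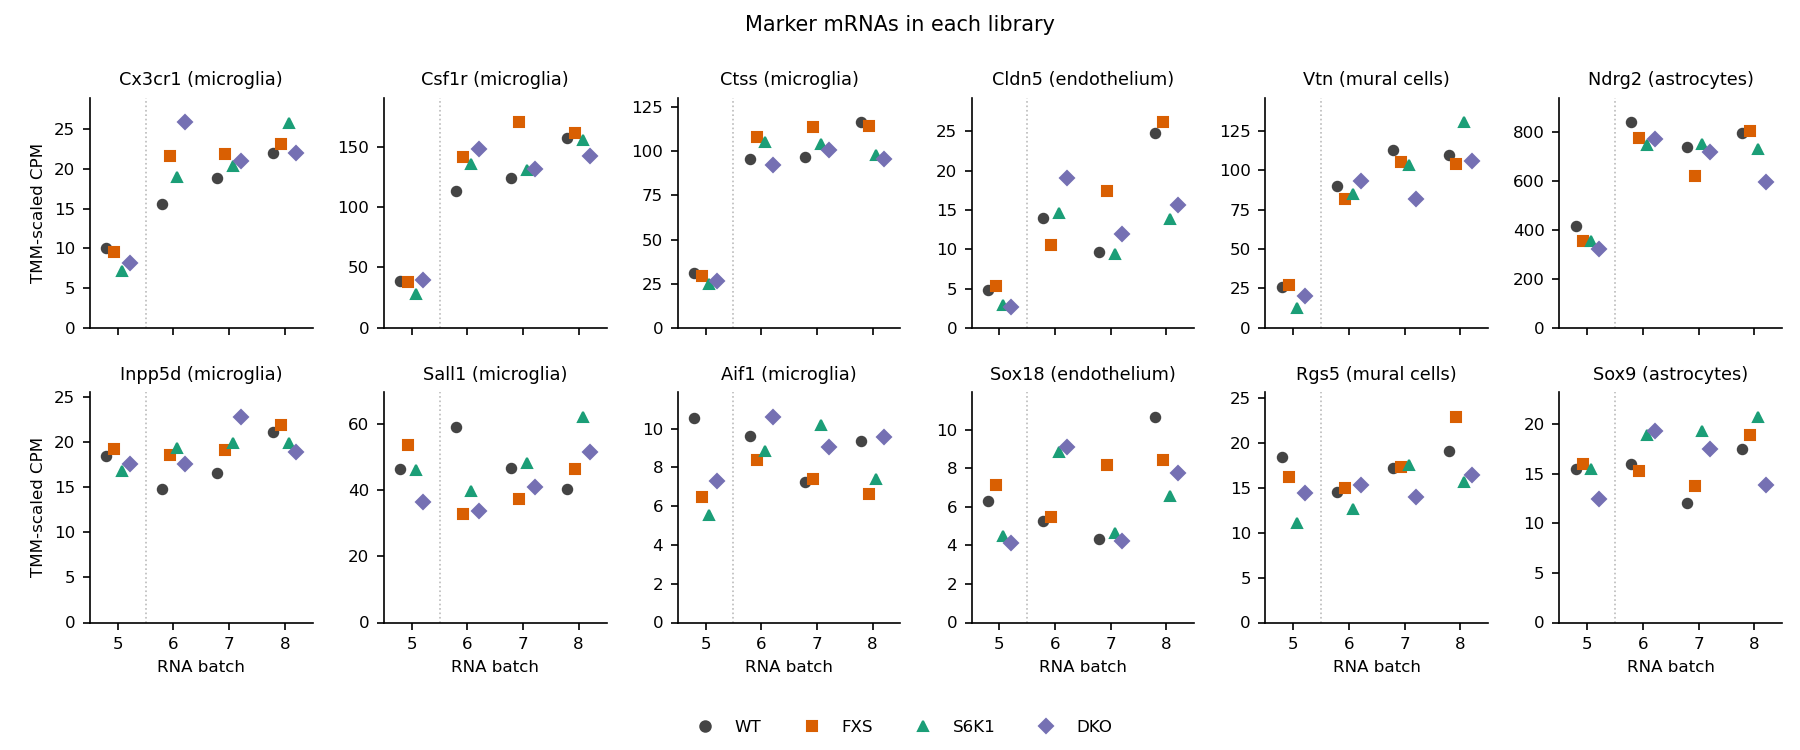
TMM-scaled CPM (linear axis from 0) of 12 marker mRNAs in each of the 16 mRNA libraries, by batch (x axis), with the genotype given by symbol and colour. In the upper row, with 5 mRNAs for membrane or secreted proteins and the cytosolic Ndrg2, all 4 libraries of batch 5 lie below the rest, such as Ctss at 25.1 to 30.8 against 92.1 CPM or more; in the lower row, with mRNAs for cytosolic or nuclear proteins, they overlap.

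Endothelial markers gave a like division. In all, 28 of 28 markers with membrane or secreted products were called lower (background 23.8%), with a median of -1.37 and a range of -2.01 to -0.47. For 23 of them batch 5 lay wholly below the others, against 13.7% of all genes. Cldn5 was at 4.79 CPM in the WT library of batch 5, 5.38 in the FXS one, 2.91 in S6K1 and 2.61 in DKO, and the others ran from 9.33 to 26.2 CPM (median 14.4). The 2 ranges do not meet, and the 2 highest values belong to the WT and FXS libraries of batch 8 (4.03 times lower, log2 fold change -2.01 ± 0.32 SE, edgeR adjusted p = 0.000189). Pltp, a secreted phospholipid transfer protein, was at 18.3, 19.96, 11.8 and 13.1 CPM against 35.3 to 53.4 CPM (median 44.6) (log2 fold change -1.49 ± 0.13 SE, edgeR adjusted p = 2.1e-08). Cd34, a surface sialomucin, was at 54.9, 46.6, 53.2 and 53.5 CPM against 71.6 to 96.2 CPM (median 89.2) (log2 fold change -0.75 ± 0.072 SE, edgeR adjusted p = 4.21e-09).

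The 4 endothelial transcription factors gave another picture, at low counts. Sox18 was at 6.30, 7.15, 4.46 and 4.13 CPM in batch 5 against 4.22 to 10.7 CPM (median 7.16) elsewhere (log2 fold change -0.35 ± 0.24 SE, edgeR adjusted p = 0.258), with values that overlap. Sox17, Erg and Foxq1 had log2 fold changes of 0.03 ± 0.29, -0.44 ± 0.23 and -0.12 ± 0.31, and none of the 4 was called. The highest of their values was 10.7 CPM, and their standard errors of 0.23 to 0.31 leave wide intervals. The summed level of the membrane and secreted endothelial markers was 286, 295, 214 and 244 CPM against 443 to 740.4 CPM (median 532).

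Mural cells, the pericytes and smooth muscle cells around vessels, gave 7 of 7 membrane or secreted markers called lower (median -1.36, background 23.8%) and 0 of 8 cytosolic or mitochondrial ones (median 0.04). Vtn, which codes for secreted vitronectin, was at 25.8, 27.3, 12.7 and 20.4 CPM against 81.5 to 131 CPM (median 104) (4.67 times lower, log2 fold change -2.22 ± 0.19 SE, edgeR adjusted p = 6.2e-07). The batch 5 values all lie far below the lowest of the others. The platelet-derived growth factor receptor Pdgfrb was at 8.01, 9.09, 6.76 and 6.14 CPM against 11.7 to 21.2 CPM (median 15.7) (log2 fold change -1.08 ± 0.13 SE, edgeR adjusted p = 1.19e-07), and the adhesion molecule Mcam at 14.4, 15.4, 14.2 and 15.98 CPM against 22.2 to 31.9 CPM (median 24.998) (log2 fold change -0.79 ± 0.089 SE, edgeR adjusted p = 5.75e-08). Rgs5, a cytosolic regulator of G proteins and a defining pericyte marker, was at 18.4, 16.2, 11.1 and 14.4 CPM against 12.7 to 22.9 CPM (median 16.1) (log2 fold change -0.14 ± 0.11 SE, edgeR adjusted p = 0.314). Acta2, smooth muscle actin, was at 11.02, 16.6, 3.52 and 5.83 CPM against 4.07 to 12.4 CPM (median 5.74) (log2 fold change 0.31 ± 0.27 SE, edgeR adjusted p = 0.383). Both overlapped the other batches. Of 12 membrane or secreted markers of meningeal fibroblasts, 10 were lower (median -1.26), among them the collagen gene Col3a1 at 1.92, 2.77, 1.42 and 2.31 CPM against 4.83 to 13.5 CPM (median 8.13) (log2 fold change -2.003 ± 0.25 SE, edgeR adjusted p = 1.64e-06), against 0 of 4 others (median -0.26).

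In astrocytes both classes of markers were mostly lower. Of 20 membrane or secreted markers, 19 were called lower (median -0.89), and of 11 cytosolic, nuclear or mitochondrial ones 9 were (median -0.59), against 23.8% of all genes. Apoe, the main lipid carrier of the brain, was at 816, 858, 719 and 799 CPM against 1870.4 to 2439 CPM (median 2214) (2.73 times lower, log2 fold change -1.45 ± 0.077 SE, edgeR adjusted p = 1.67e-13). The secreted chaperone Clu was at 662, 658, 559 and 623 CPM against 1393 to 1632 CPM (median 1489) (log2 fold change -1.25 ± 0.057 SE, edgeR adjusted p = 1.21e-14). For both, the highest library of batch 5 had less than the lowest of the others. Ndrg2, a cytosolic protein, was at 414, 356, 353 and 321 CPM against 595 to 839 CPM (median 747) (log2 fold change -1.04 ± 0.072 SE, edgeR adjusted p = 1.56e-11). The cytosolic enzymes Aldh1l1, Aldoc and Glul and the filament protein Gfap had log2 fold changes of -0.71, -0.68, -0.60 and -0.96, with edgeR adjusted p of 3.98e-08, 8.5e-08, 5.12e-07 and 6.18e-09, and for each of them batch 5 did not overlap the rest. The transcription factors Sox9 and Gli3 were not called. Sox9 was at 15.5, 16.02, 15.5 and 12.5 CPM against 12.1 to 20.8 CPM (median 17.5) (log2 fold change -0.18 ± 0.11 SE, edgeR adjusted p = 0.184), and Gli3 had a log2 fold change of 0.05 ± 0.16. The membrane member that was not called was Atp13a4 (-0.18 ± 0.12).

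In the oligodendrocyte lineage, 15 of 19 membrane or secreted markers were lower and 0 higher (median -0.66). Of 12 with cytosolic, nuclear or mitochondrial products 1 was lower and 3 were higher (median -0.05). Over all genes 23.8% were lower and 20.5% higher, so the higher share of this second class is near that of all genes. Mag, myelin-associated glycoprotein, was at 103, 106, 95.5 and 102 CPM against 205 to 280.3 CPM (median 236) (log2 fold change -1.19 ± 0.066 SE, edgeR adjusted p = 2.34e-13). Cnp, an enzyme on the cytosolic face of myelin, was at 338, 308, 347 and 331 CPM against 312 to 429 CPM (median 359) (log2 fold change -0.14 ± 0.061 SE, edgeR adjusted p = 0.0728). The member of the second class that was lower was Mbp, myelin basic protein, whose mRNA is carried into the cell's processes and translated there, at 458, 397, 443 and 407 CPM against 653 to 1007 CPM (median 809) (log2 fold change -0.94 ± 0.091 SE, edgeR adjusted p = 2.08e-08). Mobp, another myelin protein of the cytosolic side, had a log2 fold change of -0.10 ± 0.10 and overlapped. Of 11 membrane or secreted precursor markers 10 were lower, among them C1ql1, a secreted C1q-like protein (log2 fold change -0.97 ± 0.098 SE, edgeR adjusted p = 1.1e-08). The 1 precursor marker of the second class was lower too (-0.99), with all of batch 5 below the others, so these precursor markers show no division. The highest log2 fold change among the 13 tested precursor markers, 0.16, belonged to a marker assigned to neither class.

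**Figure D2:**
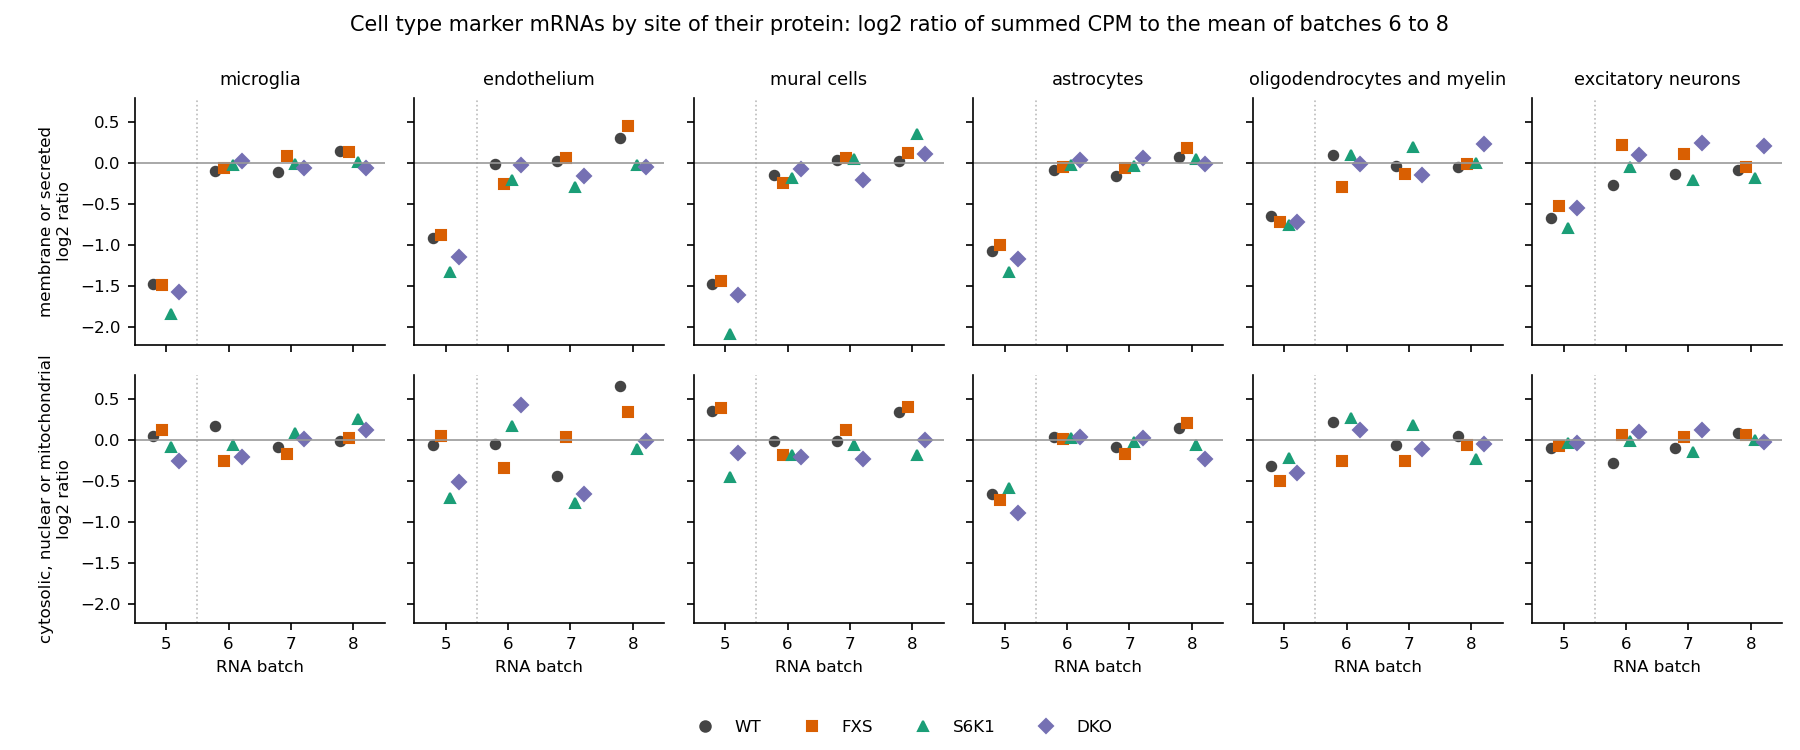
Summed CPM of cell type markers in each library as a log2 ratio to the mean of batches 6 to 8 (y axis), by batch (x axis) and genotype (symbols). In the upper row, markers with membrane or secreted products, all 4 libraries of batch 5 lie below the other 12 in the 6 cell types; in the lower row, markers with cytosolic, nuclear or mitochondrial products, they lie below the others in astrocytes and overlap them in the other 5 cell types.

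Neuronal markers were divided too. Of 4 membrane or secreted markers of excitatory neurons 3 were lower, and of the 11 others 2 were (medians -0.69 and 0.05, background 23.8% lower and 20.5% higher); over both kinds the 5 lower became 3 without the FXS or the DKO library of batch 5. Slc17a7, the vesicular glutamate transporter, was at 1446, 1632, 1315 and 1587 CPM against 1961 to 2936 CPM (median 2342) (log2 fold change -0.69 ± 0.065 SE, edgeR adjusted p = 2.45e-09). The cortical transcription factor Neurod2 had a log2 fold change of 0.05 ± 0.10 and was not called. Of 14 membrane or secreted interneuron markers 11 were lower and 1 higher (median -0.80), and of 12 others 1 was lower and 2 were higher (median 0.19). Slc32a1, which loads GABA into vesicles, was at 55.6, 69.2, 50.2 and 60.9 CPM against 110.5 to 164 CPM (median 121) (log2 fold change -1.12 ± 0.090 SE, edgeR adjusted p = 6.46e-10). The neuropeptide somatostatin (Sst) was at 168, 181, 155 and 166 CPM against 248 to 388 CPM (median 301) (log2 fold change -0.84 ± 0.074 SE, edgeR adjusted p = 8.75e-10). In the same class of neuron the cytosolic GABA-making enzymes Gad1 and Gad2 had log2 fold changes of -0.24 ± 0.072 and 0.21 ± 0.065, called in opposite directions. Lhx6, a transcription factor of Sst and other interneurons, had 0.17 ± 0.11 and was not called.

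Of 10 tested markers of the hippocampus, which lies next to the cortex, 5 were lower and 1 higher (median -0.55), of 9 thalamic ones 2 and 1 (median -0.11), and of 5 of the olfactory bulb 0 and 0 (median -0.52). The striatum lies beneath the cortex, and of 20 tested striatal markers 9 were higher and 4 lower (median 0.38, background 20.5% and 23.8%), with 2 lower without batch 8. Of 9 with membrane or secreted products 0 were higher and 4 lower (median -0.16). Of 9 with cytosolic, nuclear or mitochondrial products 8 were higher and 0 lower (median 0.55). Pde10a, the cyclic nucleotide phosphodiesterase of striatal projection neurons, was at 81.6, 89.4, 69.4 and 95.8 CPM against 29.3 to 56.1 CPM (median 40.1) (2.05 times higher, log2 fold change 1.03 ± 0.13 SE, edgeR adjusted p = 1.52e-05). The nuclear receptor Rarb was at 25.8, 27.4, 27.7 and 23.6 CPM against 12.1 to 20.2 CPM (median 15.97) (log2 fold change 0.66 ± 0.095 SE, edgeR adjusted p = 3.07e-06), and for both genes all of batch 5 lay above the others. Among the markers that were lower, the neuropeptide genes Pdyn (-0.54 ± 0.11) and Penk (-0.498 ± 0.14) and the cyclase Adcy5 (-0.32 ± 0.083) have secreted or membrane products. The dopamine receptor mRNAs Drd1 and Drd2, which define the 2 kinds of projection neuron, had log2 fold changes of 0.03 ± 0.11 and 0.35 ± 0.16 and were not called. The part of dissection in these values was not tested.

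Of 4 red blood cell mRNAs 0 were called, and the haemoglobin gene Hba-a2 was at 889, 776, 1257 and 511 CPM against 246 to 1622 CPM (median 691). It is nearly identical to a second copy, so the reads may be divided between them. The choroid plexus secretes cerebrospinal fluid. Of its 12 tested markers 1 was lower and 1 higher (median 0.58), against 23.8% and 20.5% of all genes. This list was not divided by the site of the protein. Its member Ttr ranged from 0.828 to 570.1 CPM over the 12 other libraries and was at 212, 169, 7.03 and 171 CPM in batch 5 (log2 fold change 0.84 ± 1.502 SE, edgeR adjusted p = 0.689). For both genes the batch 5 values lie within the range of the others. Enpp2, also a marker of the choroid plexus and made by oligodendrocytes and vessels as well, is an exception at 251, 212, 179.8 and 219.8 CPM against 303 to 488 CPM (median 397) (log2 fold change -0.90 ± 0.083 SE, edgeR adjusted p = 4.47e-09).

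Over the 19 lists that were divided, 165 of 193 tested members with membrane or secreted products were lower and 1 was higher (median -0.92), against 31 lower and 26 higher (13 without the DKO library of batch 5) of 165 others (median -0.05, between -0.09 and 0.00 over 27 alternative settings). The background over all genes was 23.8% lower and 20.5% higher. Members assigned to neither class are not in these counts. Lists that were not divided are not in them either, such as that of the choroid plexus (12 tested, 1 lower, 1 higher, median 0.58). Batch 5 lay wholly below the other libraries for 130 of the first class and 10 of the second, against 13.7% of all genes. Without the S6K1 library of batch 5 the first class gave 153 lower with a median of -0.81.

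Most of the listed mRNAs for lysosomal proteins and for ER chaperones, which every cell type uses, were lower as well. These and the following families were chosen after the values had been seen. Of 37 lysosomal hydrolases and membrane proteins 35 were lower (median -0.83), against 23.8% of all genes. Lgmn, the lysosomal protease legumain, was at 69.6, 70.2, 68.5 and 69.1 CPM against 166 to 181 CPM (median 173) (log2 fold change -1.32 ± 0.053 SE, edgeR adjusted p = 1.38e-15), with batch 5 values that barely differ among themselves. Psap, precursor of the saposins that activate lipid breakdown, had a log2 fold change of -1.30 ± 0.062, Lamp1, the main glycoprotein of the lysosomal membrane, -0.98 ± 0.057, and the protease gene Ctsd -1.23 ± 0.056. Of 15 ER chaperones and folding enzymes 14 were lower (median -0.92). Os9, which hands misfolded glycoproteins to degradation, was at 85.6, 94.2, 76.9 and 97.04 CPM against 190.0 to 223 CPM (median 200.2) (log2 fold change -1.20 ± 0.064 SE, edgeR adjusted p = 1.67e-13). The chaperones Hspa5 and Canx had -1.01 ± 0.14 and -0.98 ± 0.078. Of 85 Golgi glycosyltransferases and sulphotransferases 52 were lower and 33 were not called (median -0.37).

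The proton pump that acidifies lysosomes and synaptic vesicles, the V-ATPase, has a sector in the membrane (V0) and one in the cytosol (V1). Of 9 V0 and accessory subunits 7 were lower (median -0.61), and of 10 V1 subunits 2 were lower and 1 was higher (median 0.03). Over all genes 23.8% were lower and 20.5% higher, so the V1 shares are near or under those of all genes. The accessory subunit Atp6ap1 was at 225, 270.2, 202 and 267 CPM against 468 to 620.1 CPM (median 533) (log2 fold change -1.17 ± 0.056 SE, edgeR adjusted p = 2.8e-14). Atp6v0a1 and Atp6v0c, which span the membrane, had log2 fold changes of -0.85 ± 0.061 and -0.77 ± 0.061. Atp6v0d1 is counted with V0 but sits on its cytosolic side, and it had -0.02 ± 0.055. Atp6v1a and Atp6v1h, the V1 members with the smallest p, had -0.16 ± 0.059 and -0.16 ± 0.059; they lost the call in 8 and 7 of 27 alternative settings.

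Ion channels consist of pore subunits in the membrane and, for some, partner subunits in the cytosol. Of 20 calcium channel pore, alpha-2-delta and gamma subunits 14 were lower and 1 was higher (median -0.39; over all genes 23.8% were lower and 20.5% higher), with 9 lower without the S6K1 library of batch 5, while of 4 beta subunits, which bind the pore from the cytosol, 0 were lower and 2 higher (median 0.28). Cacna2d3, an alpha-2-delta subunit outside the membrane, had a log2 fold change of -0.86 ± 0.067. Cacnb4 was at 113, 109, 126 and 142 CPM against 59.01 to 84.98 CPM (median 71.2), 1.72 times higher (log2 fold change 0.78 ± 0.066 SE, edgeR adjusted p = 4.1e-10), with all 4 libraries of batch 5 above the other 12. Of 67 potassium channel pore subunits 36 were lower and 5 higher (2 without the FXS and 3 without the DKO library of batch 5, 3 without batch 6; median -0.28), and of 7 cytosolic partners 0 were lower and 2 higher (median 0.06). The inward rectifier Kcnj4 had -0.72 ± 0.061 and the channel-binding protein Kcnip2 0.36 ± 0.057.

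Transporters, phosphatases and cyclic AMP enzymes form further pairs. Of 203 solute carriers of the cell surface and vesicles 131 were lower and 3 higher (median -0.50), and of 42 Slc25 carriers, which are made on free ribosomes and sent to the mitochondrial inner membrane, 4 were lower and 10 higher (median 0.04); over all genes 23.8% were lower and 20.5% higher. The 4 became 2 without any 1 of 8 libraries, 2 of them in batch 5, and without batch 6 or batch 7. Slc3a2, the heavy chain of amino acid transporters, had a log2 fold change of -1.11 ± 0.063, and the mitochondrial carrier Slc25a51 0.46 ± 0.065. Receptor tyrosine phosphatases gave 16 lower and 1 higher of 20 (median -0.74), with Ptprn, a protein of dense-core vesicles, at -0.96 ± 0.065. The non-receptor ones gave 2 lower and 5 higher (3 without batch 6) of 15 (median 0.12), with Ptpn4 at 0.87 ± 0.10. Adenylyl cyclases, which make cyclic AMP at the membrane, gave 6 lower and 1 higher of 9 (median -0.45), and phosphodiesterases, which degrade it, 3 lower and 9 higher of 19 (median 0.21).

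Most families of surface receptors and adhesion molecules had a larger share of lower members than the 23.8% of all genes. Tetraspanins gave 20 lower of 21, semaphorins and plexins, which guide axons, 26 of 29, cadherins 23 of 30, adhesion G protein-coupled receptors 12 of 15 and metabotropic glutamate receptors 7 of 7. Integrins had 10 lower, 1 higher and 13 not called of 24 (median -0.31), and collagens and laminins 24 lower and 1 higher of 49 (median -0.37). Ionotropic glutamate and GABA-A receptors gave 21 lower and 1 higher of 29 (median -0.49). Grin1, the obligatory subunit of NMDA receptors, was at 266, 303, 244 and 312 CPM against 554 to 709 CPM (median 638) (log2 fold change -1.19 ± 0.063 SE, edgeR adjusted p = 1.48e-13). The member that was higher was Grin2b, with a log2 fold change of 0.39 ± 0.15, a call lost in 10 of 27 alternative settings. The scaffold proteins beneath these receptors gave 2 lower and 5 higher of 19 (median 0.04), the 5 falling to 2 without the WT library of batch 5 and to 3 without its S6K1 or DKO library, the DKO library of batch 7, batch 6 or batch 7, with Dlg4 (PSD-95) at -0.01 ± 0.057 and Dlgap3, one of those called lower, at -0.40 ± 0.085. At the presynaptic side, the vesicle membrane proteins Sv2a, Syp and Syt1 had -1.03 ± 0.060, -0.94 ± 0.064 and -0.72 ± 0.072, all called. Of 12 cytosolic release proteins 5 were lower and 1 higher (the lower share is above the 23.8% of all genes; median -0.08), with the active zone protein Pclo at -0.43 ± 0.062 and the vesicle fusion protein Snap25 at 0.13 ± 0.065. The vesicle SNARE Vamp2 and the syntaxin Stx1a, whose membrane anchor lies at the end of the chain and is inserted after translation, had 0.16 ± 0.061 and 0.09 ± 0.065. Vamp2 was called higher (edgeR adjusted p = 0.0354), a call that was lost in 9 of 27 alternative settings.

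**Figure D3:**
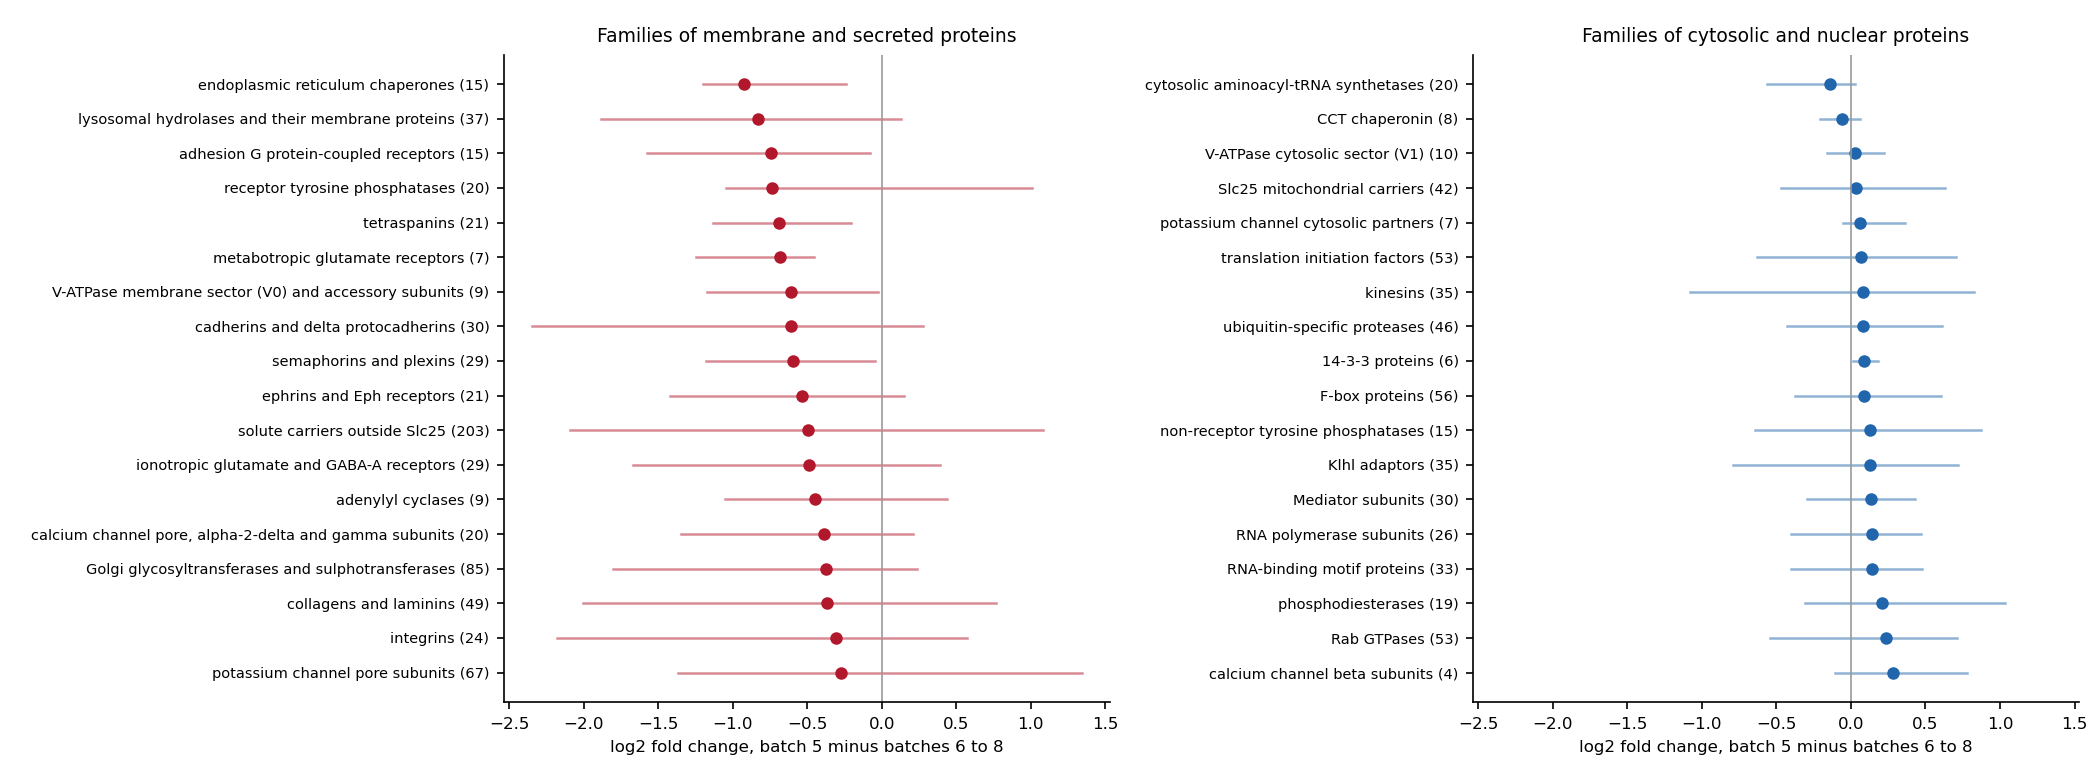
Median (dot) and range (line) of the log2 fold change of batch 5 against batches 6 to 8 (x axis) over the tested members of each family, with the number tested in brackets. The medians of all 18 families of membrane and secreted proteins (left) are below 0, from -0.92 for ER chaperones to -0.28 for potassium channel pores, and those of the 18 families of cytosolic and nuclear proteins (right) run from -0.14 to 0.28.

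In all, the 18 families of membrane and secreted proteins had 690 tested members (of 833 listed, the rest under the filter on low counts), 470 lower and 14 higher (median -0.51). The 14 became 7 without the FXS library and 9 without the DKO library of batch 5, 9 also without batch 6, and 24 without batch 8. The 18 families of cytosolic and nuclear proteins had 498 of 549, with 55 lower and 147 higher (median 0.10). The 13027 tested genes in neither set had 21.9% lower and 21.1% higher, with a median of 0.03. The summed level of the first set was 34304, 36220.0, 29453 and 35375 CPM in WT, FXS, S6K1 and DKO of batch 5 against 49277 to 56947 CPM (median 54441), and that of the second 52154, 52018, 56354 and 53381 CPM against 51843 to 55233 CPM (median 53908). The first sum was lower in each library of batch 5 than in each of the 12 others, and the second overlapped. The medians of the first set were -0.47 against batch 6, -0.51 against batch 7 and -0.56 against batch 8, and those of the second 0.08 against batch 6, 0.09 against batch 7 and 0.12 against batch 8; these comparisons share the libraries of batch 5. Of the 470 genes lower by more than 1 on the log2 scale, 145 belong to a membrane or secreted group named here and 4 to a cytosolic or nuclear one (Dsp, Kif4, Ndrg2 and Npas4). Most of the 470 belong to neither. The first groups hold 690 tested genes in families and 193 in the divided lists, and the second 498 and 165, with some genes in both kinds. All were drawn up after the values had been seen, so these counts are a description.

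Among the 6 genes that were lower with the smallest p, Cpe, the carboxypeptidase that matures neuropeptides inside secretory granules, was at 1579, 1516, 1356 and 1489.7 CPM against 3490.4 to 3985 CPM (median 3818) (log2 fold change -1.35 ± 0.057 SE, edgeR adjusted p = 2.91e-15). Sparcl1, a secreted matrix protein of astrocytes, was at 1247, 1158, 1055 and 1192 CPM against 2854 to 3498 CPM (median 3253) (log2 fold change -1.47 ± 0.064 SE, edgeR adjusted p = 4.93e-15). App, the amyloid precursor protein, was at 921 ± 84.3 CPM (SD, n = 4) in batch 5 and 2299 ± 146 (SD, n = 12) in the others, a log2 fold change of -1.32 ± 0.062, and its relatives Aplp1 and Aplp2 had -1.05 ± 0.058 and -1.23 ± 0.063. The granule proteins Chgb and Scg2 had -1.19 ± 0.073 and -1.14 ± 0.073, and Rpn1 and Rpn2, subunits of the enzyme that adds sugar chains in the ER, -1.13 ± 0.068 and -1.05 ± 0.065. App and the genes after it in this paragraph were picked after their values had been seen.

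Some cytosolic mRNAs were lower by as much. Ezr, which codes for ezrin, a cytosolic linker between membrane and actin, was at 18.005, 17.7, 21.98 and 15.1 CPM against 59.5 to 80.4 CPM (median 71.02) (3.94 times lower, log2 fold change -1.98 ± 0.077 SE, edgeR adjusted p = 9.04e-16). The related linkers Rdx and Msn had log2 fold changes of -1.46 ± 0.079 and -1.15 ± 0.12, and the adaptor Apba2 -1.84 ± 0.084; these 3 were picked after their values had been seen. Among the families, 9 of 20 cytosolic aminoacyl-tRNA synthetases, which load amino acids onto tRNAs, were lower and 0 higher (background 23.8% and 20.5%; median -0.14, Aars -0.57 ± 0.061). Of 35 kinesins 7 were lower, among them the motor genes Kif5a (-0.94 ± 0.097) and Kif1c (-0.79 ± 0.077), and 5 were higher (3 without the FXS or DKO library of batch 5, batch 6 or batch 7); the lower share is under the 23.8% of all genes, and the median was 0.08. Eif2ak3, which matched the pattern for translation initiation factors, codes for PERK, a kinase of the ER membrane, and had the smallest p of that family (-0.63 ± 0.071).

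Genes that were higher in batch 5 changed by less and were mostly of the nucleus and cytosol among the lists examined. Of 315 Zfp zinc finger genes 157 were higher, against 20.5% of all genes, and 3 lower (median 0.27). Zfp871, which had the smallest p among genes that were higher, was at 29.2, 31.04, 27.6 and 31.4 CPM against 12.2 to 17.6 CPM (median 13.3), 2.11 times higher (log2 fold change 1.08 ± 0.088 SE, edgeR adjusted p = 2.66e-10). Fem1b, a substrate adaptor of a ubiquitin ligase, was at 74.6, 79.8, 82.7 and 83.5 CPM against 42.7 to 53.1 CPM (median 46.2) (log2 fold change 0.76 ± 0.063 SE, edgeR adjusted p = 3.4e-10). All 4 libraries of batch 5 were above the others for both. Rab GTPases, which steer vesicle traffic from the cytosol, gave 27 higher and 1 lower of 53 (median 0.24), Klhl ubiquitin adaptors 15 and 1 of 35, ubiquitin-specific proteases 19 and 3 of 46, and chromatin regulators 13 and 5 of 40. Leaving out 1 library of batch 5 lowered the Rab count to 17 (S6K1), the protease count to 12 (FXS) or 11 (DKO) and the chromatin count to 8 (DKO), the last also without batch 6; without the WT library 3 chromatin regulators were lower. Kdm7a, a histone demethylase, had a log2 fold change of 0.92 ± 0.081, and Tet1, an enzyme that oxidises methylcytosine, 1.06 ± 0.16. Ppp1r9a, which codes for neurabin, a cytosolic actin-binding scaffold of synapses, was at 70.9, 95.1, 51.05 and 78.6 CPM against 21.1 to 38.6 CPM (median 30.3) (log2 fold change 1.23 ± 0.12 SE, edgeR adjusted p = 3.38e-07). Klf12, a transcription factor, and Yod1, a deubiquitinase, were among the 6 largest increases with 0.94 ± 0.12 and 0.96 ± 0.12.

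For the translation and energy machinery the counts moved with single libraries. Of 77 cytosolic ribosomal protein mRNAs 5 were lower and 0 higher (median -0.05), with Rplp1 at -0.37 ± 0.080. Mitochondrial ribosomal proteins, made on free ribosomes, gave 0 lower and 20 higher of 77 (median 0.12). Nuclear-encoded respiratory chain subunits gave 9 lower and 9 higher of 77 (median 0.04), and proteasome subunits 3 and 5 of 37. Over all genes 23.8% were lower and 20.5% higher. Without the S6K1 library of batch 5 the higher calls were 8, 2 and 0 in the last 3 groups, and without its FXS library 11, 1 and 2; proteasome subunits had 2 without its DKO library and 3 without batch 8, and the respiratory chain 2 without batch 7. Lower calls of the respiratory chain were 5 without the WT or the DKO library of batch 5 and 15 without batch 8. Lower calls of ribosomal proteins were 2 without the WT library and 1 without the DKO library of batch 5, 2 without batch 6, 15 without the S6K1 library of batch 8 and 11 without batch 8. The ribosomal protein mRNAs can share reads with pseudogenes, so single members are uncertain.

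By gene span, the distance from a gene's first to its last base in the RefSeq table, genes were put into 10 bins of equal size. The share called higher ran from 9.1% in the bin of shortest genes (0.334 to 4.73 kb) to 28.1% in the bin before the last (up to 144 kb). The share called lower stayed between 19.4% and 27.1%. Of 10 bins by mean level, the one of most abundant genes had 37.5% lower and 13.4% higher, and the one of least abundant genes (up to 1.86 CPM) 10.9% and 2.53%. The median log2 fold change lay between -0.01 and 0.06 in every bin of span.

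The direction was shared by the 4 genotypes. Each library of batch 5 was set against the mean of the 3 other libraries of its genotype, with no test since there is 1 library per genotype and batch. Over the membrane and secreted families the median log2 difference was -0.37 for WT, -0.41 for FXS, -0.69 for S6K1 and -0.49 for DKO, and over the cytosolic and nuclear families 0.07 for WT, 0.09 for FXS, 0.14 for S6K1 and 0.08 for DKO. Microglial membrane and secreted markers gave -1.05 for WT, -1.17 for FXS, -1.73 for S6K1 and -1.42 for DKO, and endothelial ones -1.09 for WT, -0.998 for FXS, -1.28 for S6K1 and -1.20 for DKO. The S6K1 library had the lowest median in these 3 membrane or secreted groups. It also had the most genes below -1 on this scale, 6.55% of those tested against 1.93% in WT, 2.19% in FXS and 2.98% in DKO. Whether that belongs to the genotype or to the library cannot be told apart.

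**Figure D4:**
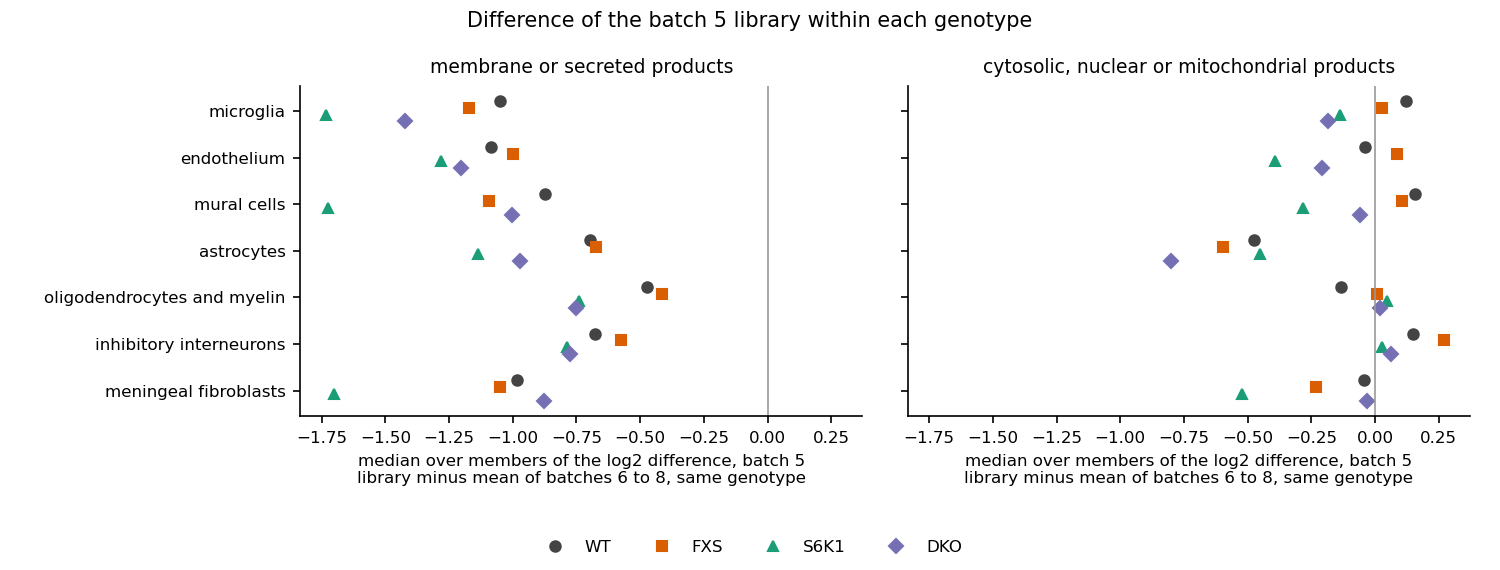
Median over list members of the log2 difference (CPM plus 0.5) between the batch 5 library and the mean of the 3 libraries of batches 6 to 8 of the same genotype (x axis), for 7 cell types (y axis). For markers with membrane or secreted products (left) all 28 medians are below 0, with S6K1 the lowest in microglia at -1.73; for the other markers (right) astrocytes lie between -0.80 and -0.45 and the other 6 cell types lie between -0.52 (S6K1 library, meningeal fibroblasts) and 0.27.

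The labels number the batches of the footprint libraries 1 to 4. Whether these share tissue or lysates with the mRNA batches is not given in the sources used here. The footprint libraries were scaled apart from the mRNA libraries, so levels are compared within them alone. Genotypes are unbalanced over the footprint batches. The summed level of the membrane and secreted families was 39200.0 to 41136 CPM in batch 1, 37377 to 41302 in batch 2, 32558 to 42433 in batch 3 and 29292 to 33185 in batch 4, a range of 1.45-fold from lowest to highest library. In the mRNA libraries the same genes ranged 1.93-fold with batch 5 and 1.16-fold without it. The cytosolic and nuclear families ranged 1.22-fold among footprint libraries and 1.09-fold among mRNA libraries. ER chaperones were at 3353 to 3845 CPM in footprint batch 1 and 1965 to 2257 in footprint batch 4, which do not overlap; batch 1 held no WT or FXS library and batch 4 no S6K1 library.

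**Figure D5:**
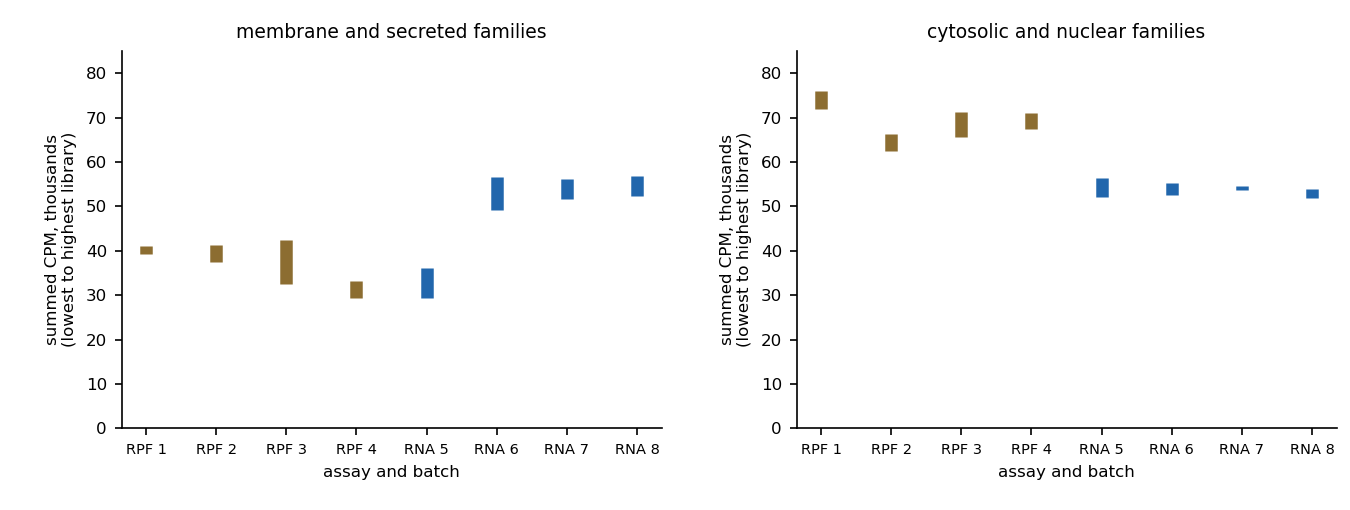
Summed CPM (in 1000 CPM, y axis from 0) of the membrane and secreted families (left) and the cytosolic and nuclear families (right), as bars from the lowest to the highest library of each footprint (RPF) and mRNA batch (x axis); the 2 assays were scaled separately. On the left mRNA batch 5, at 29453 to 36220.0 CPM, lies below the other mRNA batches at 49277 to 56947 CPM, and footprint batch 4 is the lowest of its assay; on the right mRNA batch 5 overlaps the other mRNA batches.

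The comparisons between genotypes, which carry a term for batch, depended on which batches were in the fit. FXS against WT gave 22 called genes with all 4 batches (0.155%) and 8 without batch 5 (0.0564%), 5 of them shared. DKO against WT gave 743 (5.23%) and 480 (3.38%), with 387 shared. Leaving out another batch moved these counts further: FXS against WT gave 3 without batch 6, 2 without batch 7 and 339 without batch 8, and DKO against WT 38, 3 and 1509. With no batch term both gave 2. With 1 term for batch 5 in place of 4 batches, FXS against WT gave 2 and DKO against WT 502.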

How the data were processed

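The deposited tables hold the authors' raw counts per gene symbol, 1 column per library, for 16 mRNA and 15 ribosome footprint libraries; by the tables' own names the counts cover coding sequence. Per the submitters' processing notes, cutadapt 2.0, Bowtie2, TopHat2, RSEM and the build mm10 were used; their roles, and the counter and annotation, are not given in the sources used here. Genotype and batch were taken from the labels, per the labels' batch field. The list of mRNA libraries deposited with the counts numbers the same batches 1 to 4, and the labels' 5 to 8 are used here. No column of another sample was present, and no library pair agreed within sampling noise (smallest chi-square per degree of freedom 4.80 over 120 pairs). 

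The 20436 symbols were filtered with filterByExpr on genotype, which left 14215, and fitted with edgeR 4.0.16 (R 4.3.3; TMM factors, robust quasi-likelihood F-test, Benjamini-Hochberg adjusted p under 0.05) with genotype and 1 term for batch 5, so the spread between batches 6, 7 and 8 counts as error. CPM values are TMM-scaled; differences within a genotype use log2(CPM + 0.5). A list is described by its calls and its median, with no test. Members of 19 lists were divided by the known site of their protein, not by a sequence prediction. Some members were assigned to neither class and left out of the division. Of 22 tested cholesterol genes, 9 were in the membrane or secreted class and 8 in the other. Of 18 tested genes of the synaptic vesicle and release machinery, 3 and 12 were. The members and lists were chosen with earlier results of these data known, and the divisions and the 36 protein families were added after the values had been seen. Genes named are Cx3cr1, Cldn5, Fmr1 and Rps6kb1, the 6 with the smallest p and the 6 with the largest change (mean of at least 5 CPM) in each direction, and the 2 with the smallest p of each list; all others were chosen after their values were seen. Gene span from RefSeq (GRCm38.p6) stood in for coding length and covers 99.7% of tested genes. On simulated counts for this comparison (14110 genes fitted), 67 of 100 genes changed by 0.5 and 100 of 100 changed by 1 on the log2 scale were recovered, with 7 false calls. The simulation gave every gene the same spread and no difference between genotypes or among batches 6, 7 and 8. Its figures do not cover such differences. Alternatives were DESeq2 1.42.0, limma 3.58.1 (voom), other scaling factors and filters, other batch and genotype terms, and leaving out each library or batch. The authors' own tables of genotype comparisons were not used here, and some genes are not reported here.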

Additional observations from a re-analysis of the deposited data

Results flagged for a closer look

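Over 224 groups of 4 libraries of a batch, 13 had 1 library whose gap to the next exceeded Dixon's 95% critical value for such a group; chance gives about 1 in 20. In batch 5, Csf1r stood at 28.13 CPM in the S6K1 library against 38.08 to 39.56 CPM in the other 3, and Sox9 at 12.52 CPM in the DKO library against 15.47 to 16.02 CPM. In batch 6, the cytosolic mural markers summed to 42.83 CPM in WT against 37.45 to 38.14 CPM, Slc32a1 was at 155.2 CPM in DKO against 117 to 121.2 CPM, and Ezr at 80.44 CPM in S6K1 against 70.22 to 70.79 CPM. In batch 7, the membrane or secreted mural markers summed to 147.4 CPM in DKO against 175 to 178.3 CPM and Rgs5 was at 13.93 CPM in DKO against 17.24 to 17.49 CPM. The FXS library of batch 7 was high in Csf1r (170.2 CPM against 123.7 to 131.6 CPM), Sox18 (8.168 CPM against 4.218 to 4.625 CPM) and Acta2 (9.52 CPM against 5.648 to 5.971 CPM). In batch 8, the membrane or secreted oligodendrocyte markers summed to 2865 CPM in DKO against 2372 to 2440.0 CPM, Pltp was at 43.91 CPM in DKO against 52.54 to 53.37 CPM, and Sst at 248.1 CPM in S6K1 against 301.1 to 310.7 CPM. With 1 library per genotype and batch, genotype and library cannot be told apart in any of them.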

How the results depend on the processing

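The count of genes that differed in batch 5, 6297, lay between 5615 and 6836 under the alternative scalings, filters, tools, models and left-out batches, and between 5141 and 6479 with 1 library left out (lowest without the DKO library of batch 5). Upper quartile factors moved the share of higher calls from 46.3% to 54.9%. The counts for the other batches moved. Batch 6 gave 1477 with 4 batch terms, batch 7 gave 1 with DESeq2 and 996 with 4 terms, and batch 8 gave 122 with DESeq2, 2070 with 4 terms and 126 with batch 5 left out, an alternative chosen after seeing the data. FXS against WT gave 8, 3, 2 and 339 calls without batch 5, 6, 7 and 8, 2 with no batch term and 2 with 1 term for batch 5. DKO against WT gave 480, 38, 3 and 1509 without those batches and 2 with no batch term. The cause of these moves was not tested.

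Of 137 genes named in the text, 119 stayed on their side of the threshold under all 27 alternatives, and none changed direction while called. Calls were lost for Grin2b (10 settings, adjusted p up to 0.182), Vamp2 (9, up to 0.178), Atp6v1a (8), Atp6v1h (7), Dsp (4, without the S6K1 or DKO library of batch 5, batch 6 or batch 8), Npas4 (4, without genotype, those same libraries or batch 8), Gad1 (without the WT library of batch 5), Gad2 (without its DKO library), Penk (without batch 8) and Fmr1 (without genotype). Calls were gained for Drd2 (8), Arc (5), Cnp (3), and once each for Aif1, Fos, Mvd, Pmvk and Snap25. Of 122 list medians, 17 changed sign under at least 1 alternative, among them those of blood leukocytes (0.25, 1 gene), glucocorticoid-responsive genes (0.22) and dividing cells (0.17). No paired analysis was possible because the labels give no replicate numbers; libraries are matched across batches by genotype alone, which is a term of the fit, and leaving it out gave 5892 calls. Genes at a few CPM, such as the endothelial transcription factors, are limited by depth.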

Other observations

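Lists that follow the state of the tissue moved in both directions. Of 22 cholesterol genes 13 were lower and 1 higher (median -0.38, background 23.8% and 20.5%). Srebf2, the membrane-bound transcription factor of the pathway, was at 157, 192, 142 and 193 CPM in WT, FXS, S6K1 and DKO of batch 5 against 231 to 316 CPM (median 261) (log2 fold change -0.65 ± 0.068 SE, edgeR adjusted p = 1.65e-08). Enzymes in the ER membrane had log2 fold changes of -0.77 ± 0.091 (Sqle) and -1.06 ± 0.12 (Cyp51), and the cytosolic or peroxisomal enzymes Mvk, Mvd and Pmvk -0.11 ± 0.081, -0.11 ± 0.093 and -0.10 ± 0.072, none of these 3 called. Among interferon and MHC class I genes 7 of 16 were lower, against the same background. H2-D1, an MHC class I heavy chain whose reads may be shared with close relatives, was at 14.8, 13.9, 9.74 and 14.1 CPM against 29.4 to 35.5 CPM (median 32.8) (log2 fold change -1.32 ± 0.084 SE, edgeR adjusted p = 3.21e-12), B2m, the light chain, had -1.06 ± 0.10, and the interferon-induced cytosolic proteins Ifit3 and Isg15 had -0.01 ± 0.12 and 0.17 ± 0.20 and were not called.

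Of 32 immediate early genes, which neurons switch on within minutes of activity, 8 were lower and 3 higher (median -0.32). The lower share is near the 23.8% of all genes, and the count was 5 without the S6K1 or the DKO library of batch 5, 15 without the S6K1 library of batch 6 and 13 without the DKO library of batch 8. Nptx2, a secreted synaptic protein, was at 51.8, 45.8, 35.1 and 37.4 CPM against 49.4 to 82.2 CPM (median 73.4) (log2 fold change -0.78 ± 0.11 SE, edgeR adjusted p = 1.01e-05), with 1 batch 5 library inside the range of the others. Fos was at 39.1, 33.1, 50.4 and 40.2 CPM against 26.02 to 103 CPM (median 74.6) and Arc at 119, 92.3, 109.9 and 66.6 CPM against 74.003 to 269.8 CPM (median 173); their log2 fold changes, -0.72 ± 0.35 and -0.84 ± 0.34, did not pass the test (edgeR adjusted p = 0.124 and 0.0661). Of 17 clock genes 4 were higher and 2 lower, near or under the 20.5% and 23.8% of all genes, with 7 higher without the WT library of batch 8 and 9 without that batch. The core transcription factor Clock was at 51.5, 53.7, 48.8 and 57.7 CPM against 25.8 to 35.7 CPM (median 31.9) (log2 fold change 0.77 ± 0.077 SE, edgeR adjusted p = 7.72e-09), with batch 5 above all others, while its partner Arntl had 0.10 ± 0.063 and was not called. Of 11 hypoxia-responsive genes 5 were higher and 2 lower (background 20.5% and 23.8%), with Pdk1, a mitochondrial kinase, at 0.58 ± 0.094 and P4ha1, a collagen-modifying enzyme of the ER, at -0.64 ± 0.068.

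Among glucocorticoid-responsive genes 5 of 14 were higher and 3 lower (median 0.22, between -0.05 and 0.27 over the alternative settings; background 20.5% and 23.8%). Without the S6K1 library of batch 5 there were 2 higher and the median was -0.05; without its DKO library or without batch 6 there were also 2 higher. Fkbp5, a cochaperone of the glucocorticoid receptor, was at 24.9, 27.3, 46.2 and 28.9 CPM against 19.8 to 26.4 CPM (median 22.9) (log2 fold change 0.45 ± 0.096 SE, edgeR adjusted p = 0.000425), with the S6K1 library of batch 5 far above the other 3. Of 13 heat shock genes 5 were lower and 3 higher (background 23.8% and 20.5%). The cytosolic chaperones Hspa8 and Hsp90ab1 had -0.41 ± 0.056 and -0.35 ± 0.059, with all 4 libraries of batch 5 below the others, and the cochaperone Chordc1 0.41 ± 0.071.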
